A study of Bos taurus with 6 samples.

Results

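The microRNAs bta-miR-192, bta-miR-215 and bta-miR-194 were followed in granulosa cells, the somatic cells that line the ovarian follicle, from bovine preovulatory dominant and subordinate follicles. These 3 names were taken from the 755 mature miRNA names in the deposited counts, because bta-miR-192 and bta-miR-215 carry the same seed and each lies beside a copy of bta-miR-194. All 3 were found, on 4 hairpin precursors. They were chosen by name, with the read counts of dominant and subordinate follicles and above all the difference in bta-miR-215 already known, so every difference between follicle types is given here as a description without a p-value.

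The study sequenced small RNA of 6 libraries, 3 from preovulatory dominant follicles and 3 from anovulatory subordinate follicles, all collected on day 19 of the oestrous cycle from synchronized Simmental heifers. Both follicle types came from the same animals. The authors separated the follicles by surface diameter and pooled granulosa cell RNA to make triplicates. Far fewer dominant than subordinate follicles went into the pools, so a dominant library may hold very few follicles and a subordinate library many. With 1 count per mature miRNA, the dominant libraries held between 190385 and 311842 reads and the subordinate libraries between 306932 and 364125. The authors examined granulosa purity on transcripts of FSHR, a granulosa cell gene, and CYP17A1, a theca cell gene. Here the labelled cell type could be checked on miRNAs only. Bta-miR-202, a miRNA enriched in gonads, had 12884, 10079 and 13664 reads in the dominant libraries and 3920, 4709 and 3484 reads in the subordinate libraries. It was present in every library but differed between the follicle types, so it is no measure of purity.

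A miRNA guides its protein complex to messenger RNAs mainly through its seed, the short stretch next to the 5′ end, so miRNAs with the same seed are expected to share many targets. The group of miR-192, miR-194 and miR-215 is best known from the epithelium of gut, liver and kidney, where hepatocyte nuclear factors drive it, and as a group of p53-responsive miRNAs that slow the cell cycle. In mammals the group is encoded by a pair of small clusters, 1 with miR-215 and a miR-194 copy and 1 with miR-192 and the other miR-194 copy. The RefSeq gene table for cattle, on the assembly ARS-UCD2.0, lists MIR215 beside MIR194-1 inside the span of IARS2, the gene of a mitochondrial isoleucyl-tRNA synthetase. MIR192 and MIR194-2 are listed side by side inside the span of EHD1, a gene of endosomal recycling. No other miRNA counted in the files lies within 10 kb of these hairpins. The counts were made on an older assembly, UMD3.1, so no positions are given. The files list no other arm of these hairpins.

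Bta-miR-215 was the member that differed most between the follicle types. It had 402, 571 and 389 reads in the dominant libraries and 54, 49 and 51 in the subordinate libraries. Every dominant library lay far above every subordinate library. Levels were compared as CPM, the count of a miRNA over the scaled size of its library, with TMM scaling, which corrects library size for the share taken by abundant miRNAs. On that scale the levels were 1419, 2649 and 1239 CPM in dominant follicles and 159, 158 and 180 CPM in subordinate follicles. The means were 1769 ± 767 and 166 ± 12.1 CPM (SD, n = 3 libraries each), a ratio of 10.7. The log2 fold change of dominant over subordinate follicles was 3.41 (standard error 0.33) in edgeR's quasi-likelihood fit of 353 detected miRNAs. The spread seen lay in the dominant group. There replicate 2 was 16.0 times the subordinate mean and replicates 1 and 3 were 8.55 and 7.46 times that mean. The SD of the subordinate libraries was below the counting error of their reads, between 13.6 and 14.3%, so it is too small to measure their spread. Without dominant replicate 2 the log2 fold change was 3.03. Of the 353 miRNAs, 14 had a log2 fold change as high as that of bta-miR-215 or higher, itself included.

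Bta-miR-192, with the same seed, did not share this pattern. It had 559, 406 and 648 reads in dominant follicles and 994, 889 and 546 in subordinate follicles. These equal 1972, 1883 and 2063 CPM and 2935, 2875 and 1927 CPM, respectively. Subordinate replicates 1 and 2 were above all dominant libraries, and subordinate replicate 3 fell among them, so the groups overlapped. The mean was 1973 ± 90.1 CPM in dominant and 2579 ± 566 CPM in subordinate follicles (SD, n = 3 each), and the log2 fold change was -0.39 (standard error 0.21). Without subordinate replicate 3 it was -0.56. In 5 of the 6 libraries bta-miR-192 was the more abundant of the pair, and in dominant replicate 2 bta-miR-215 was.

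Bta-miR-194, the cluster mate of both, was far scarcer. Using the larger of its hairpin counts, it had 28, 36 and 20 reads in dominant follicles and 18, 24 and 18 in subordinate follicles. Its levels were 98.8, 167 and 63.7 CPM in dominant and 53.2, 77.6 and 63.5 CPM in subordinate follicles. Dominant replicates 1 and 2 were above every subordinate library and dominant replicate 3 was not. The log2 fold change was 0.74 (standard error 0.41), and 0.36 without dominant replicate 2. At this depth, where 3 reads equal between 8.86 and 13.9 CPM, the counting error alone of these larger counts was between 16.7 and 23.6%. For bta-miR-192 it was between 3.17 and 4.96%.

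**Figure D1:**
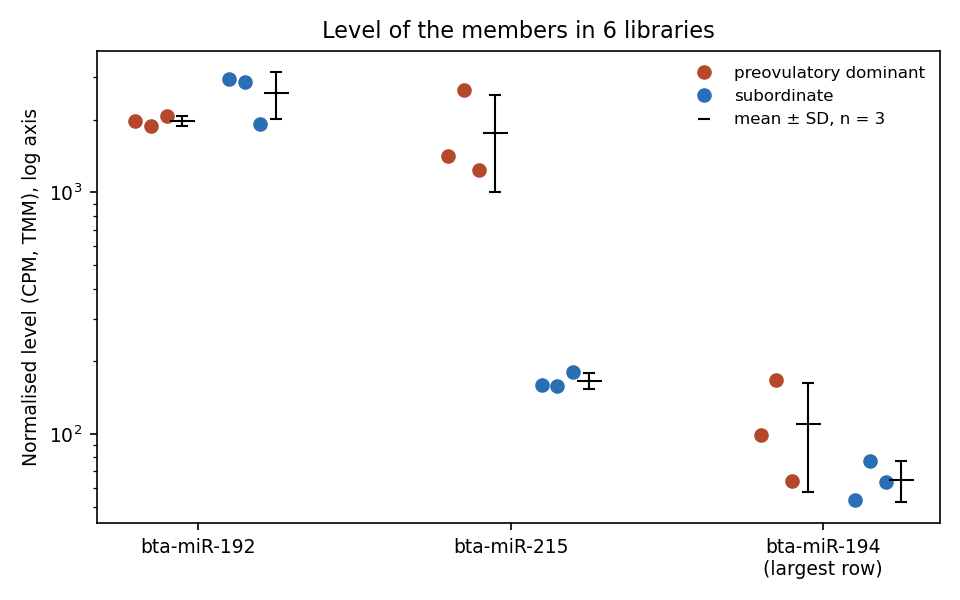
Normalised level (CPM with TMM scaling, log axis) of bta-miR-192, bta-miR-215 and bta-miR-194 in 3 preovulatory dominant (red) and 3 subordinate (blue) libraries, with bars for mean ± SD. For bta-miR-215 the dominant libraries sit between 1239 and 2649 CPM and the subordinate libraries between 158 and 180 CPM, while the groups overlap for the other members.

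By the thresholds of the study (a log2 fold change of 1 or more in either direction, with p up to 0.05 and a false discovery rate up to 0.1), 1 of the 3 members was called, bta-miR-215, as higher in dominant follicles. Among all 353 miRNAs tested 21.5% were called, 11.9% as higher and 9.63% as lower in dominant follicles. The members were chosen with this comparison in view, so nothing is read from their count against these shares. Groups that did not overlap in CPM were likewise seen for 1 member, and for 36.8% of all miRNAs tested. Scaling by total count in place of TMM moved the median log2 fold change of all miRNAs up by 0.20, and the calls from 42 higher of 76 to 47 higher of 70. With that scaling the values of the members were 3.64 for bta-miR-215, -0.18 for bta-miR-192 and 0.98 for bta-miR-194, with the same single call.

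**Figure D2:**
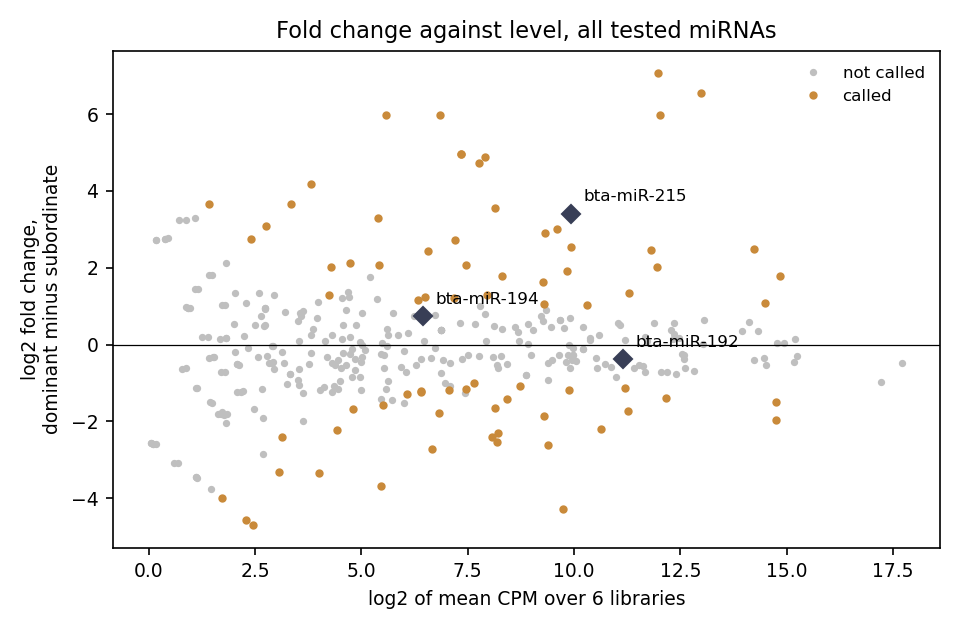
Log2 fold change (dominant minus subordinate) against the log2 of the mean CPM over 6 libraries for 353 miRNAs, with called miRNAs in orange and the members as dark diamonds. Bta-miR-215 lies at 3.41, bta-miR-194 at 0.74 and bta-miR-192 at -0.39.

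Within the abundance order of the 353 miRNAs, bta-miR-215 held place 52 by mean CPM in dominant follicles and place 131 in subordinate follicles. Bta-miR-192 held places 51 and 46. The mean levels in dominant follicles, 1769 ± 767 and 1973 ± 90.1 CPM, did not differ beyond the spread, but their closeness rested on dominant replicate 2. In the single dominant libraries bta-miR-215 held places 57, 42 and 63 and bta-miR-192 places 50, 52 and 52, so bta-miR-215 was the lower of the pair in replicates 1 and 3 and the higher in replicate 2. In subordinate follicles the levels were apart beyond the spread. Bta-miR-194 held places 148 and 167. Such an order compares reads, since ligation and amplification recover each miRNA sequence with its own efficiency.

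The ratio of bta-miR-215 to bta-miR-192 within a library does not depend on how libraries are scaled. Bta-miR-215 equalled 71.9, 141 and 60.0% of the reads of bta-miR-192 in dominant follicles. In subordinate follicles it equalled 5.43, 5.51 and 9.34%. The log2 ratio averaged -0.24 ± 0.65 in dominant and -3.93 ± 0.45 in subordinate follicles (SD, n = 3 each), a difference of 3.69. It lay between 3.33 and 3.95 when any 1 library was left out. How many mismatches the authors' counting allowed between a read and these closely related sequences is not given in the sources used here, and its part in the ratio was not tested. The subordinate libraries had up to 994 reads of bta-miR-192 and at most 54 of bta-miR-215. The dominant libraries had at most 648 reads of bta-miR-192 and at least 389 of bta-miR-215.

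Counted in reads, the same-seed pool of bta-miR-192 plus bta-miR-215 differed more in makeup than in size between the follicle types. Its size and shares in molecules are not known, since each sequence is recovered with its own efficiency. The pool held 3391, 4532 and 3302 CPM in dominant follicles and 3095, 3034 and 2107 CPM in subordinate follicles. All dominant libraries were above all subordinate libraries, but dominant replicate 3 exceeded subordinate replicate 1 by little. The means of 3742 ± 686 and 2745 ± 554 CPM (SD, n = 3 each) gave a ratio of 1.36. The mean log2 difference was 0.45 and ran from 0.27 to 0.55 when 1 library at a time was left out.

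The share of bta-miR-215 in that pool was 41.8% (95% exact Clopper-Pearson interval 38.7 to 45.0), 58.4% (55.3 to 61.6) and 37.5% (34.6 to 40.5) in dominant follicles. In subordinate follicles the share was 5.15% (3.89 to 6.67), 5.22% (3.89 to 6.85) and 8.54% (6.43 to 11.1). These intervals cover counting error only, and none of the dominant intervals met a subordinate interval. The means were 45.9 ± 11.1% and 6.31 ± 1.94% (SD, n = 3 each).

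**Figure D3:**
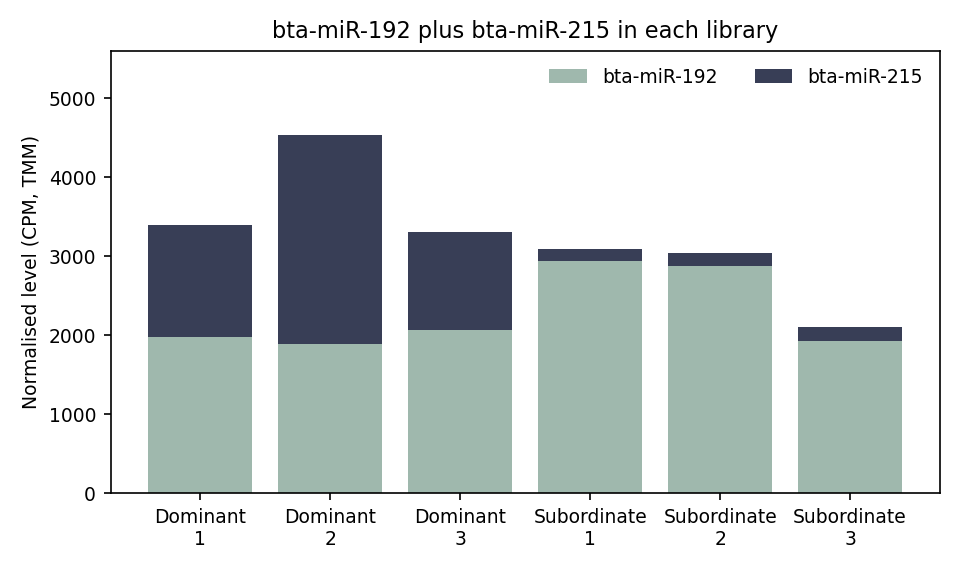
Level (CPM with TMM scaling) of bta-miR-192 and bta-miR-215 stacked for each of the 6 libraries. The full bars run from 3302 to 4532 CPM in dominant and from 2107 to 3095 CPM in subordinate libraries, and the dark part, bta-miR-215, is 37.5 to 58.4% of the bar in dominant and 5.15 to 8.54% in subordinate libraries.

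Bta-miR-194 can come from either locus, and the files count it on each hairpin. On bta-mir-194-1, the hairpin beside bta-mir-215, it had 28, 36 and 20 reads in dominant follicles and 18, 17 and 15 in subordinate follicles. On bta-mir-194-2, beside bta-mir-192, the counts were 16, 13 and 19 in dominant and 16, 24 and 18 in subordinate follicles. The first set of counts was higher in every dominant library than in every subordinate library, and the second set overlapped. The larger count was that of bta-mir-194-1 in all 3 dominant libraries and in subordinate replicate 1, and that of bta-mir-194-2 in subordinate replicates 2 and 3.

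In CPM the count on bta-mir-194-1 averaged 110 ± 52.5 in dominant and 53.7 ± 1.13 in subordinate follicles (SD, n = 3 each). This subordinate SD was far below the counting error of these reads, between 23.6 and 25.8%, so it is too small to measure their spread. That on bta-mir-194-2 averaged 59.1 ± 2.28 and 62.8 ± 15.2 CPM (SD, n = 3 each). When either count took the place of the larger one in the edgeR fit, the log2 fold change of bta-miR-194 was 1.01 (standard error 0.41) from bta-mir-194-1 and -0.08 (standard error 0.35) from bta-mir-194-2. Neither passed the thresholds. Summing both counts gave 0.49. The direction and size given for bta-miR-194 therefore turned on which hairpin was counted.

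The log2 ratio of the count on bta-mir-194-1 to that on bta-mir-194-2 was 0.81, 1.47 and 0.07 in dominant follicles and 0.17, -0.50 and -0.26 in subordinate follicles. Dominant replicate 3 lay below subordinate replicate 1, so the groups overlapped in this ratio. Between libraries of the same replicate number the ratio was higher in the dominant library in all 3 pairs. Nothing states that the numbers pair the pools, so this is a description only. The count on bta-mir-194-1 minus that on bta-mir-194-2 averaged 12 ± 11 reads in dominant and -2.67 ± 4.51 reads in subordinate follicles (SD, n = 3 each). Reads that match both hairpins can stand in both counts, and the files do not show which do.

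**Figure D4:**
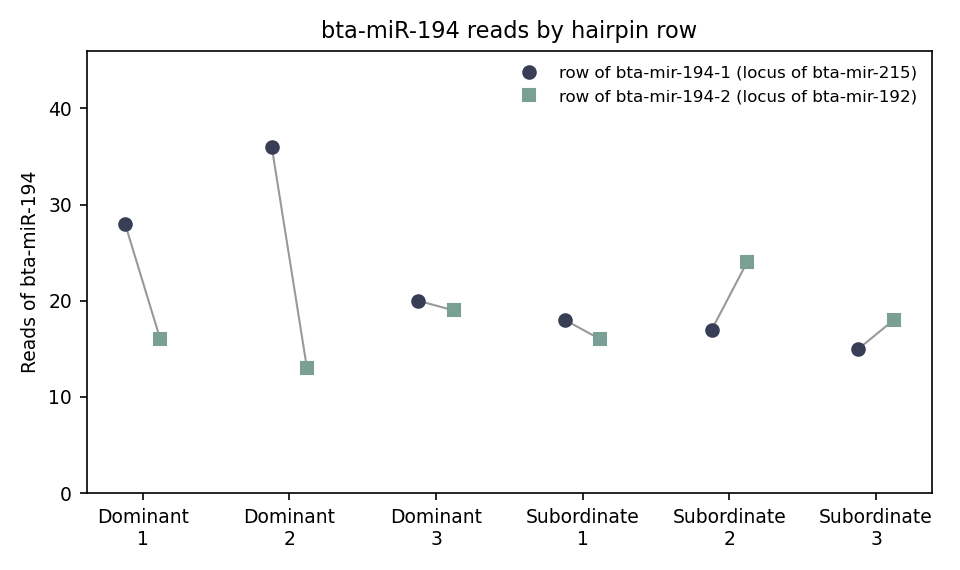
Reads of bta-miR-194 counted on bta-mir-194-1 (dark circles) and on bta-mir-194-2 (green squares) in each library, joined by a line. The circles lie between 20 and 36 reads in dominant and between 15 and 18 reads in subordinate libraries, and the squares between 13 and 19 and between 16 and 24 reads.

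Unequal counts of 1 mature miRNA on its hairpins were not peculiar to bta-miR-194. Of 73 names with several hairpins, 40 had counts that differed and 33 had equal counts in all libraries. For 28 of the 40 names at least 2 hairpins reached a mean of 10 reads in a follicle type. The median gap in log2 fold change between the highest and lowest hairpin was 0.05 over these 28 names. For bta-miR-194 the gap was 1.09, and 6 of the 28 names, itself included, reached it. The others were bta-miR-339b and 4 names of the bta-miR-2284aa group that have the same counts, named here after their values were seen. For bta-miR-339b the compared hairpins are bta-mir-339a and bta-mir-339b. For the 4 names the highest hairpin was bta-mir-2284aa-1 and the lowest bta-mir-2284z-5. These gaps thus set hairpins named after different miRNAs against each other, unlike that of bta-miR-194.

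Cluster mates were compared locus by locus with each hairpin fitted as a feature of its own. At the IARS2 locus the log2 fold change of bta-miR-215 was 3.41 (standard error 0.33) and that of bta-miR-194 counted on bta-mir-194-1 was 1.01 (standard error 0.40). Both were higher in dominant follicles, and they differed by 2.40. Reads of bta-miR-215 were 14.4, 15.9 and 19.4 times those of its mate in dominant follicles and 3.00, 2.88 and 3.40 times in subordinate follicles. By these counts the ratio was not fixed, and the groups were far apart in it. The count on bta-mir-194-1 can include reads that match both hairpins. Whether the ratio of products of this locus alone differed was therefore not tested.

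At the EHD1 locus the log2 fold change of bta-miR-192 was -0.39 (standard error 0.22) and that of bta-miR-194 counted on bta-mir-194-2 was -0.08 (standard error 0.35), a difference of -0.30. Reads of bta-miR-192 were 34.9, 31.2 and 34.1 times those of this mate in dominant follicles and 62.1, 37.0 and 30.3 times in subordinate follicles. The groups overlapped in this ratio. With the larger hairpin count, bta-miR-194 equalled 2.91, 3.69 and 1.93% of the pool of bta-miR-192 and bta-miR-215 in dominant follicles. In subordinate follicles it equalled 1.72, 2.56 and 3.02%, and again the groups overlapped.

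Over the whole data, 81 pairs of miRNAs had hairpins within 10 kb of each other and reached a mean of 10 reads in a follicle type. The median absolute difference in log2 fold change within such a pair was 0.56. Bta-miR-215 and bta-miR-194 differed by 2.67, and 2 of the 81 pairs (2.47%) differed by as much or more, this pair included. Bta-miR-192 and bta-miR-194 differed by 1.13, which 19 pairs (23.5%) reached. Both values use the larger count of bta-miR-194, which in all dominant libraries was that on bta-mir-194-1, at the locus of bta-mir-215. By the count on the hairpin of its own locus, bta-miR-192 differed from its mate by 0.30, below the median pair. Bta-miR-215 differed from its mate by 2.40, still far above the median pair. The 0.30 rests on few reads of the mate, with standard errors of 0.22 and 0.35. It does not show that these mates move together. Reads that match both hairpins can stand in both counts and were not set apart. By the larger count, only bta-miR-296 and bta-miR-6123 differed more than bta-miR-215 and bta-miR-194, with log2 fold changes of -2.41 and 0.46. The pairs next in order were bta-let-7a-5p with bta-miR-100, and bta-miR-92a with bta-miR-17-3p and with bta-miR-18a. Log2 fold changes of opposite sign were found in 14 pairs. These shares describe the data and are no test, since 1 miRNA can stand in several pairs.

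**Figure D5:**
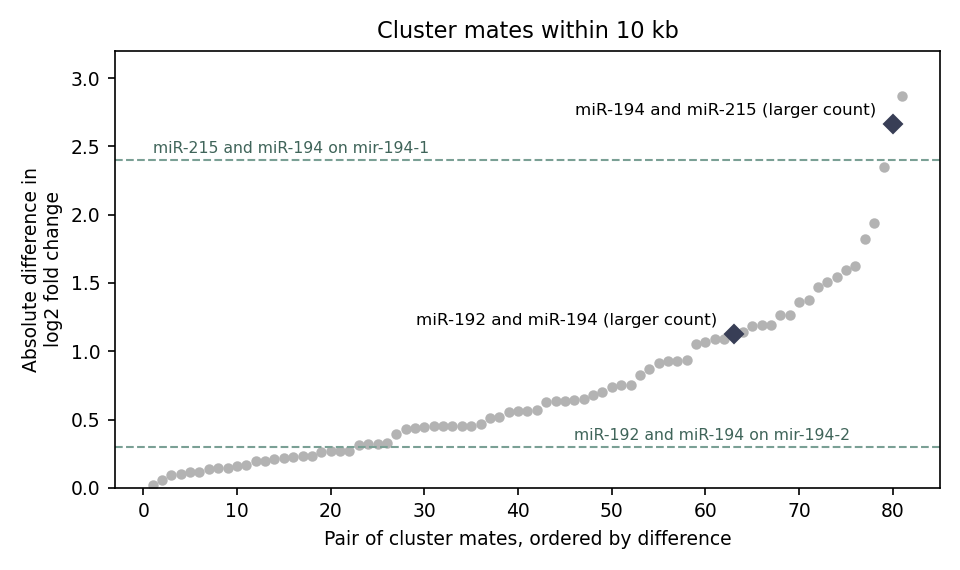
Absolute difference in log2 fold change within 81 pairs of miRNAs with hairpins within 10 kb of each other, in ascending order, with the pairs of the members by the larger count of bta-miR-194 as dark diamonds at 2.67 and 1.13. Dashed lines give the differences by the count on the hairpin of the same locus, 2.40 for bta-miR-215 and 0.30 for bta-miR-192. That count can include reads that match both hairpins.

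The miRNAs most like each member were found by the root mean square difference of log2 CPM over the 6 libraries, after each miRNA was centred on its own mean. Among 208 other miRNAs that reached a mean of 10 reads in a follicle type, bta-miR-708 was the nearest to bta-miR-215, at 0.39. It had 406, 724 and 436 CPM in dominant and 56.1, 22.6 and 52.9 CPM in subordinate follicles, and so was also highest in dominant replicate 2. Next came bta-miR-22-3p (0.51) and bta-miR-22-5p (0.54), both arms of 1 hairpin. The median over all 208 miRNAs was 1.8. Bta-miR-194 was at place 39 and bta-miR-192 at place 120.

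Nearest to bta-miR-192 were bta-miR-502b (0.08), bta-miR-151-3p (0.11) and bta-miR-505 (0.12). In bta-miR-502b, as in bta-miR-192, subordinate replicates 1 and 2 stood at 162 and 158 CPM and subordinate replicate 3 at 95.3 CPM, among the dominant libraries. Bta-miR-194 was at place 131 in the order of likeness to bta-miR-192, and bta-miR-215 stood further down at 1.89. The nearest to bta-miR-194 was bta-miR-34a, a p53-responsive miRNA, at 0.22, with 52.9, 88.1 and 31.8 CPM in dominant and 23.6, 29.1 and 21.2 CPM in subordinate follicles. Bta-miR-374b (0.27) and bta-miR-652 (0.29) followed. For miRNAs of so few reads such distances include counting error.

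Other miRNAs known to respond to p53 were set beside the members, namely the bta-miR-34 family, bta-miR-145 and bta-miR-107. Of 5 names 4 were detected. Bta-miR-34c was called as higher in dominant follicles, with 13, 10 and 12 reads against 5, 2 and 2 reads and a log2 fold change of 2.13 (standard error 0.50). The log2 fold change of bta-miR-34a was 1.19 (standard error 0.48) and that of bta-miR-107 was 0.69 (standard error 0.18), and neither was called. Bta-miR-145, which is also abundant in smooth muscle and stroma, had -0.26 (standard error 0.33). The median log2 fold change of the 4 was 0.94, between the values of bta-miR-107 and bta-miR-34a, against -0.20 over all 353 miRNAs. Of the 4, 1 was called, beside 21.5% of all miRNAs tested. Bta-miR-34b, with at most 2 reads in any library, was left out by the detection rule. With so few names nothing is read from this list, and a part of p53 was not tested.

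Epithelial miRNAs of several kinds of epithelium, set beside the members, were at or near the floor. Of 8 names, 7 were listed and 2 detected. Bta-miR-205 had no read in any library, and bta-miR-200a, bta-miR-200b, bta-miR-200c, bta-miR-429 and bta-miR-141 had at most 5 reads in any library. Bta-miR-375, a miRNA of endocrine epithelia, had 7, 6 and 9 reads in dominant and 0, 1 and 0 in subordinate follicles, and it was called as higher (log2 fold change 4.19, standard error 0.83). The summed level of the epithelial list ran from 31.8 to 55.7 CPM in dominant and from 0 to 29.5 CPM in subordinate follicles. Bta-miR-122, the dominant miRNA of hepatocytes, had 4, 1 and 3 reads in dominant and 0, 0 and 1 in subordinate follicles. It was also called as higher (log2 fold change 2.75, standard error 1.04), close to the false discovery rate limit at 0.096. Among all miRNAs tested 11.9% were called as higher. Bta-miR-375, bta-miR-141 and bta-miR-122 passed the detection rule only through the dominant libraries. That rule favours a higher level there, so nothing is read from the direction of these calls.

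Blood miRNAs differed strongly among the dominant libraries. The 7 miRNAs listed for blood summed to 14206, 8901 and 1306 CPM in dominant and 2029, 1937 and 1366 CPM in subordinate follicles. Of 6 that were detected, bta-miR-451 and bta-miR-486 of red cells were called as higher, against 11.9% of all miRNAs tested. Bta-miR-486 was the largest part of the sum in each library. The others were not called, with log2 fold changes of 1.33 for bta-miR-144, 0.53 for bta-miR-142-5p, 0.08 for bta-miR-150 and -0.48 for bta-miR-223. Dominant replicate 3 had the lowest sum of all libraries, and bta-miR-215 was still 7.46 times the subordinate mean there. The count of bta-miR-194 on bta-mir-194-1 was 63.7 CPM in that library, against 52.9 to 55.0 CPM in subordinate follicles. That is 20 reads against 15 to 18, a gap within counting error. In the dominant libraries with more blood miRNAs the count reached 98.8 and 167 CPM. The 5 miRNAs listed for stroma and theca summed to between 17603 and 27823 CPM in dominant and between 21064 and 35751 CPM in subordinate follicles. Of these 5, bta-miR-214 alone was called as lower, against 9.63% of all miRNAs tested. Both arms of bta-miR-126 of endothelium summed to between 73.2 and 293 CPM and between 354 and 540 CPM, and neither arm was called. The 2 miRNAs listed for granulosa cells were bta-miR-202 and bta-miR-21-5p. They summed to between 71937 and 80655 CPM in dominant and between 21231 and 34802 CPM in subordinate follicles. Both were called as higher, against 11.9% of all miRNAs tested. The part of the cells behind these miRNAs in the levels of the members was not tested. In pooled tissue, fewer cells of a type and less RNA per cell cannot be told apart.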

How the data were processed

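Adapter trimming and read filtering by the authors used Cutadapt and Seqtk, and they mapped reads with Bowtie to the bovine genome (UMD3.1 in the submitters' processing notes) and counted them on miRBase miRNAs with miRDeep2. Base calls came from CASAVA 1.8.0. The deposited values are raw read counts, 906 rows in each library, 1 for each pair of mature miRNA and precursor, without normalization. Here the largest row of each name was used. Names that had 1 read or more in 2 or more replicates of a group (353) were fitted with edgeR 4.0.16 (R 4.3.3), TMM factors and follicle type as the only term. Standard errors are the absolute log2 fold change over the square root of F. DESeq2 1.42.0 was an alternative, and Python 3.11.15 did the rest. The script was tested on simulated data.

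Groups and replicate numbers came from the labels. Same-numbered libraries of the groups deviated together (r = 0.11, 0.44 and 0.43 over 209 miRNAs), which met the rule used (r above 0.1 in every pair). The main fit did not treat the numbers as pairs, and the replicate number was a block in an alternative fit only. The correlations are a weak hint for number 1, since dominant replicate 1 correlated more with subordinate replicate 2 (r = 0.23). Dominant replicate 2 and subordinate replicate 1, of unlike number, also exceeded 0.1 (r = 0.11). Nothing states how the pools were paired. SDs describe the spread between pools. A planned exact sign-flip permutation test of the hairpin counts of bta-miR-194 over all 6 libraries (p = 0.406) pools follicle types whose differences have opposite signs, and nothing was read from it.

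The members, lists and comparisons were chosen with earlier results of these data known. Besides members, lists and pairs, the 3 miRNAs most like each member were named. RefSeq positions (ARS-UCD2.0, 752 of 766 precursors matched, no strand) served only to find neighbours. Mature sequences were not used here, so pairs with the same seed were not compared over all miRNAs, and the seed identity of bta-miR-192 and bta-miR-215 is background.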

Additional observations from a re-analysis of the deposited data

How the results depend on the processing

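Leaving out 1 library at a time gave 54 to 78 called miRNAs (76 with all), and log2 fold changes of 3.03 to 3.57 for bta-miR-215, -0.56 to -0.28 for bta-miR-192 and 0.36 to 0.99 for bta-miR-194. Bta-miR-215 was called under each of 14 alternatives (3.03 to 3.64) and bta-miR-192 under none (-0.56 to -0.18). Bta-miR-194 was called under none of 16, which include either hairpin count alone, chosen after the data were seen (-0.08 to 1.01). The log2 ratio of bta-miR-194 to the pool of bta-miR-192 and bta-miR-215 differed by 0.21 between follicle types, below the spread, and by -0.016 to 0.47 with 1 library left out. It turned negative without subordinate replicate 1, and the cause was not tested. With the replicate number as a block, 71 miRNAs were called and the values of the members were 3.33, -0.36 and 0.69, in the order above, so the block changed no call of a member. The share of cluster pairs as far apart as bta-miR-215 and bta-miR-194 ran from 1.23 to 3.33% under its alternatives, the last with pairs within 2 kb, a window chosen after the data were seen. The alternatives for pairs with the same seed were not run. Depth limits bta-miR-194 most, with 13 to 36 reads on a hairpin.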
